A study of Mus musculus with 12 samples.

Results

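A set of 8 genes of the hepatic fatty acid oxidation program, Ppara, Cpt1a, Cpt2, Ehhadh, Acadm, Hadha, Pdk4 and Fgf21, were followed through 12 RNA-seq libraries of mouse liver. They were chosen by gene symbol, and each symbol matched 1 row of a table of 55903 genes, so all 8 were found. The libraries form 3 groups of 4. The first comes from mice treated with KSL0608-Se, a compound known here only by its code, whose description also names doxo. The second, called aged/doxo here, carries titles of an aged control and a description of doxo, a word that the labels do not spell out. A young control forms the last group. Strain, sex, exact age, dose and time are not stated in the labels, and the title of the series concerns senescent cells removed by a light-activated agent. Nothing says whether the libraries of a group came from separate mice, so each p-value below measures the spread between libraries, which may be technical.

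In liver, fatty acids released during fasting are burned in mitochondria and, for very long or branched chains, first shortened in peroxisomes. PPARA is a nuclear receptor that binds fatty acids, pairs with RXR and switches on the genes of both routes, of ketone body synthesis and of the hormone FGF21. CPT1A and CPT2 carry acyl groups into the mitochondrion as carnitine esters, ACADM and HADHA catalyse steps of the oxidation spiral there, and EHHADH is its peroxisomal counterpart for the middle steps. PDK4 phosphorylates and thereby restrains pyruvate dehydrogenase, which spares glucose when fat is burned.

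All 8 genes are protein-coding in GENCODE M21 on GRCm38. Ppara spans chromosome 15, 85734983 to 85802819, on the plus strand, and Cpt1a chromosome 19, 3322334 to 3385733, also on the plus strand. The other 6 lie on the minus strand. Cpt2 spans chromosome 4, 107903981 to 107923610, Ehhadh chromosome 16, 21761287 to 21787807, and Acadm chromosome 3, 153922357 to 153944632. Hadha spans chromosome 5, 30118304 to 30155162, Pdk4 chromosome 6, 5483351 to 5496309, and Fgf21 chromosome 7, 45613886 to 45615490. Exons of Hadha overlap exons of Garem2 on the other strand, and the labels do not say whether reads kept their strand, so reads of that overlap cannot be assigned with certainty. No 2 of the 8 genes are neighbours, since each sits on its own chromosome.

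PPARA with RXR recognises a direct repeat of the hexamer AGGTCA with 1 base between the copies, written AGGTCANAGGTCA. The windows of 250 bases before the RefSeq transcription start (GRCm38.p6) were searched on both strands for the single hexamer and for the repeat, because the transcripts of these genes varied together between libraries. The single hexamer was found in 2 of 8 windows, those of Acadm and Cpt1a, and in 14.0% of 32544 windows of the same length over all genes. The exact repeat was in none of the 8 and in 0.0338% of all windows. Around the Acadm hexamer the repeat was matched with 3 mismatches, a degree of likeness held by 21.3% of all windows. The 3 windows that hold no annotated exon base of their own gene are printed 5′ to 3′ along the gene's strand. So is the stretch around the Cpt1a hexamer from 106 to 77 bases before its start. Exons of other genes were not looked up in the windows. The hexamer is in capitals. It reads TGACCT there because it lies on the opposite strand. RefSeq starts need not match GENCODE ones. The Cpt1a stretch lies inside the GENCODE span of Cpt1a given above, while the RefSeq starts of Acadm and Ehhadh lie outside the GENCODE spans of those genes.
Acadm, chr3:153944644-153944893, minus strand: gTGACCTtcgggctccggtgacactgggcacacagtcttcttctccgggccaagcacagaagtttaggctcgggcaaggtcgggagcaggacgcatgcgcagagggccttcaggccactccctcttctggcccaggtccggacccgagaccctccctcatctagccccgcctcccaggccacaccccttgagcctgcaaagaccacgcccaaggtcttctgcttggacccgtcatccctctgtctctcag
Cpt1a, chr19:3323195-3323224, plus strand: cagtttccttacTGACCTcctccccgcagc
Ehhadh, chr16:21787835-21788084, minus strand: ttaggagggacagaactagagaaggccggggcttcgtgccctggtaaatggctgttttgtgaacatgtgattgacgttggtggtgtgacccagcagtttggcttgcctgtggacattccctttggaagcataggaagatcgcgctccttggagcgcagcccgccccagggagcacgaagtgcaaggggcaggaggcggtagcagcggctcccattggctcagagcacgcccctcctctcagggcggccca
Fgf21, chr7:45615491-45615740, minus strand: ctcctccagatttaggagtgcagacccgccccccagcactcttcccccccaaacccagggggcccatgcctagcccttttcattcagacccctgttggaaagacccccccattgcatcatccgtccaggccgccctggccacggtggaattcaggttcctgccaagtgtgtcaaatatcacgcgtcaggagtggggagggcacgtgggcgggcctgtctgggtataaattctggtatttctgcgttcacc
These windows are short and known response elements of PPARA often lie elsewhere in a gene, so a window without the hexamer says only that these letters are not in it.

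Values are TPM, transcript abundances that the authors scaled to the same total in every library, so they keep no sequencing depth and the depth behind each value is unknown. Between 9568 and 11023 genes reached 1 TPM in a library. None of 8 hepatocyte markers was at 0 throughout a group, and their summed level ranged from 66775 to 79857 TPM in KSL0608-Se treated, from 43244 to 79007 TPM in aged/doxo and from 50448 to 74012 TPM in young control libraries. The 2 lowest sums belonged to aged/doxo library 2 and young control library 1, which also stood apart in other ways described below. Summed endothelial markers (8 genes) ranged from 43.7 to 87.7 TPM in KSL0608-Se treated, from 25.5 to 60.6 TPM in aged/doxo and from 23.6 to 65.8 TPM in young control libraries. Summed Kupffer cell and macrophage markers (10 genes) ranged from 176 to 261 TPM in KSL0608-Se treated, from 67.9 to 450 TPM in aged/doxo and from 171 to 305 TPM in young control libraries. Erythroid markers (5 genes) summed to between 846 and 1777 TPM in KSL0608-Se treated and between 1839 and 2568 TPM in aged/doxo libraries, without overlap, and to between 836 and 1991 TPM in young control libraries. Stellate cell and fibroblast markers (8 genes) stayed between 102 and 208 TPM, cholangiocyte markers (5 genes) between 22.2 and 52.8 TPM, and lymphocyte, neutrophil, adipocyte and muscle markers each at or under 6.92 TPM in every library. The part of these other cells in the results below was not tested. In bulk tissue, fewer hepatocytes and less of a transcript per hepatocyte cannot be told apart.

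The levels of the 8 transcripts kept 1 order in the means of all 3 groups. Acadm was the most abundant, followed by Ehhadh, Hadha, Cpt2, Cpt1a, Ppara, Pdk4 and Fgf21. TPM is a level per transcript length, but its dependence on gene length differed between libraries, as described below, so the order of genes of unlike length is a description of these libraries. Cpt2 exceeded Cpt1a, Ppara exceeded Pdk4, and Pdk4 exceeded Fgf21 in 12 of 12 libraries. Acadm was above Ehhadh and Cpt1a above Ppara in 11 of 12. The neighbours Ehhadh and Hadha kept their order in 10 libraries, and Hadha and Cpt2 in 8, so Hadha and Cpt2 were not separated beyond the spread between libraries. Hadha, the longer gene, lay under Cpt2 in treated library 1, aged/doxo libraries 2 and 4 and young control library 1, the 4 libraries with the steepest fall of TPM with gene length.

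**Figure D1:**
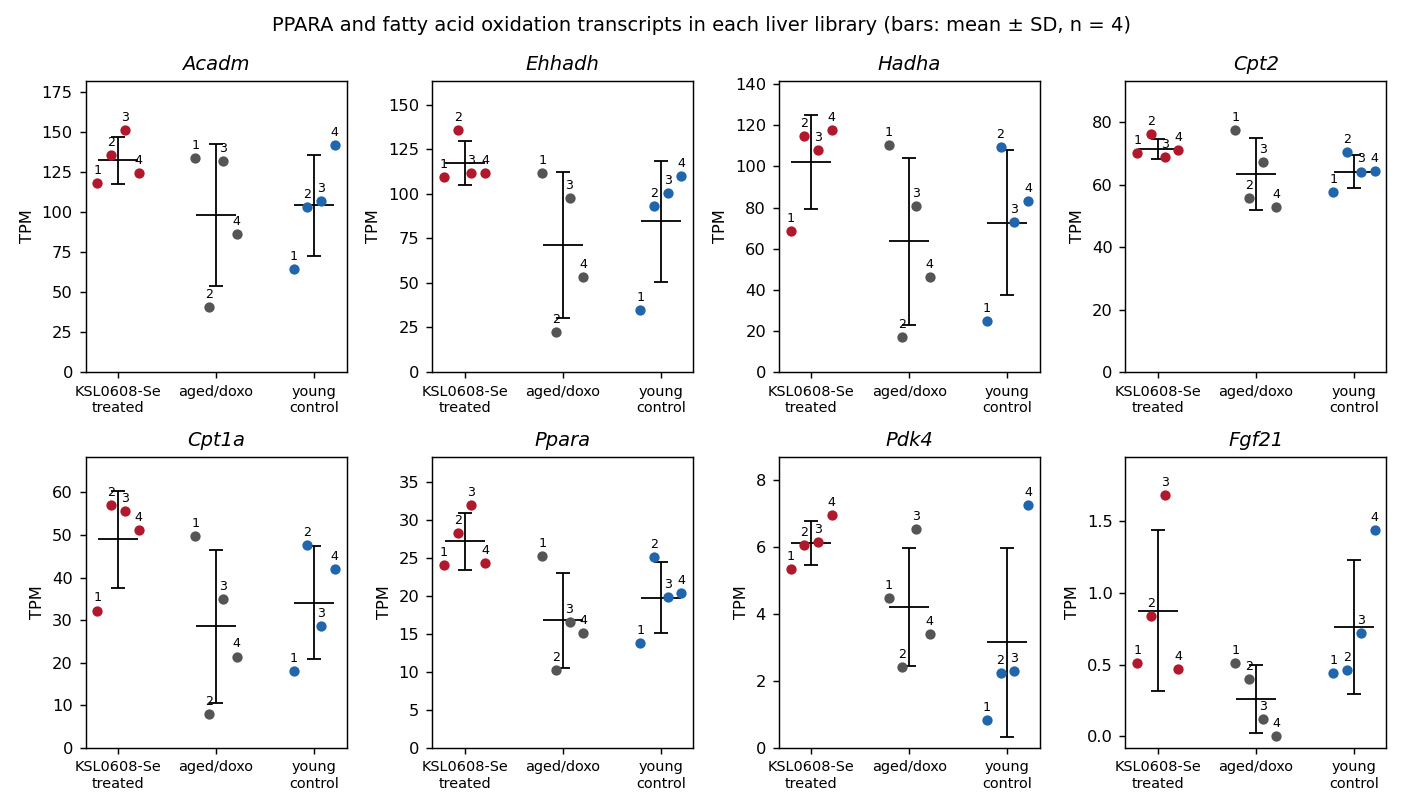
TPM of each transcript in each library (points, numbered by library within its group), with the group mean and SD (bars, n = 4), for KSL0608-Se treated, aged/doxo and young control liver. In 6 of the 8 panels aged/doxo library 2 is the lowest point of its group, and the treated points overlap those of the other groups in every panel.

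Ppara, the sensor, was measured at 24.1, 28.2, 31.9 and 24.3 TPM in KSL0608-Se treated libraries 1 to 4, at 25.2, 10.2, 16.6 and 15.1 TPM in aged/doxo libraries 1 to 4, and at 13.8, 25.1, 19.8 and 20.4 TPM in young control libraries 1 to 4. Aged/doxo library 1 reached the treated range while the other three lay under it, and young control library 2 lay inside it. Group means were 27.1 ± 3.70 TPM in KSL0608-Se treated, 16.8 ± 6.24 in aged/doxo and 19.8 ± 4.63 in young control libraries (SD, n = 4 each). Against aged/doxo, the treated mean was 1.62-fold, a log2 difference of 0.72 ± 0.26 (SE) with a 95% interval of 0.16 to 1.28, computed as for all such differences below on log2(TPM + 1). Its unadjusted limma p was 0.0161, but after Benjamini-Hochberg adjustment over the 10883 genes tested it was 0.427. A two-sided exact permutation test gave p = 0.0857, where the smallest value that 4 against 4 libraries allow is 0.0286. The treated mean was above young control by 0.46 ± 0.26 (limma adjusted p = 0.734, exact permutation p = 0.0857), and aged/doxo lay below young control by a log2 difference of -0.26 ± 0.26 (limma adjusted p = 1, exact permutation p = 0.429).

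Those differences have to be read against a shift of the whole table. Over all tested genes the median log2 difference was 0.30 for KSL0608-Se treated against aged/doxo, 0.23 for KSL0608-Se treated against young control and -0.08 for aged/doxo against young control. Relative to these medians the Ppara differences were 0.42, 0.23 and -0.18. Treated libraries enter both of the first comparisons and aged/doxo libraries enter the first and the last, so the 3 sets of values are not independent of each other.

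Entry into the mitochondrion is carried by a pair of carnitine palmitoyltransferases. Cpt1a, whose product sits in the outer membrane and is the regulated step, had 32.2, 57.0, 55.5 and 51.1 TPM in KSL0608-Se treated libraries, 49.7, 7.91, 35.0 and 21.4 TPM in aged/doxo libraries and 18.1, 47.7, 28.7 and 41.9 TPM in young control libraries. Treated library 1 lay among the middle values of the other groups, and aged/doxo libraries ran from the lowest value of all to one close to the treated ones. The log2 difference of KSL0608-Se treated against aged/doxo was 0.99 ± 0.47 with a 95% interval of -0.02 to 2.01, larger than that of 98.4% of tested genes (limma adjusted p = 0.427, exact permutation p = 0.114). With aged/doxo library 2 and young control library 1 left out it was 0.50. Against young control the treated difference was 0.57 ± 0.47 (limma adjusted p = 0.734, exact permutation p = 0.171, and 0.30 on the log2 scale without young control library 1), and aged/doxo differed from young control by -0.42 ± 0.47 (limma adjusted p = 1, exact permutation p = 0.571).

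Cpt2, the inner-membrane partner that returns the acyl group to coenzyme A, was the steadiest of the 8 transcripts. It had 70.1, 76.1, 68.8 and 71.0 TPM in KSL0608-Se treated libraries, 77.7, 55.8, 67.4 and 52.7 TPM in aged/doxo libraries and 57.7, 70.4, 64.2 and 64.5 TPM in young control libraries. Its coefficient of variation was 4.48% in treated, 18.0% in aged/doxo and 8.10% in young control libraries, against 23.3%, 62.9% and 39.0% for Cpt1a. The log2 difference of KSL0608-Se treated against aged/doxo was 0.19 ± 0.17 (95% interval -0.19 to 0.56, limma adjusted p = 0.501, exact permutation p = 0.229), below the median of all genes, and it was -0.19 once libraries were scaled by median-of-ratios and -0.10 after quantile normalization. Against young control the treated difference was 0.16 ± 0.17 (exact permutation p = 0.0857), which likewise turned negative under both scalings, and that of aged/doxo against young control was -0.03 ± 0.17 (exact permutation p = 0.857). The Cpt1a to Cpt2 ratio, which is free of the scaling between libraries but not of their dependence on gene length, was 0.684 ± 0.154 in treated, 0.427 ± 0.213 in aged/doxo and 0.522 ± 0.173 in young control libraries. Treated and aged/doxo ratios overlapped (exact permutation p = 0.114), as did treated and young control ratios (exact permutation p = 0.171). The lowest ratio of each group was 0.460 in treated library 1, 0.142 in aged/doxo library 2 and 0.314 in young control library 1, each the library of steepest length slope in its group.

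Within the spiral, Acadm encodes the medium-chain acyl-CoA dehydrogenase of the first step. It had 118, 136, 151 and 124 TPM in KSL0608-Se treated libraries, 134, 40.6, 132 and 86.4 TPM in aged/doxo libraries and 64.6, 103, 107 and 142 TPM in young control libraries. Aged/doxo libraries 1 and 3 and young control library 4 fell inside the treated range, and the rest lay under it. The log2 difference of KSL0608-Se treated against aged/doxo was 0.56 ± 0.35 (limma adjusted p = 0.427, exact permutation p = 0.229), and 0.19 with aged/doxo library 2 and young control library 1 left out. It was 0.39 ± 0.35 for KSL0608-Se treated against young control (exact permutation p = 0.143, and 0.18 on the log2 scale without young control library 1) and -0.17 ± 0.35 for aged/doxo against young control (exact permutation p = 0.743).

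Hadha encodes the alpha subunit of the trifunctional protein, which hydrates and dehydrogenates long-chain intermediates. It had 68.4, 115, 108 and 118 TPM in KSL0608-Se treated libraries, 110, 16.9, 80.8 and 46.0 TPM in aged/doxo libraries and 25.0, 110, 72.8 and 83.1 TPM in young control libraries. All 3 groups reached above 100 TPM in at least 1 library, and aged/doxo library 2 and young control library 1 were the lowest of the 12. The log2 difference of KSL0608-Se treated against aged/doxo was 0.94 ± 0.54 (limma adjusted p = 0.427, exact permutation p = 0.200). It was 0.42 with aged/doxo library 2 and young control library 1 left out, and -0.04 when the length slope described below entered the fit as a covariate. The other comparisons gave 0.64 ± 0.54 for KSL0608-Se treated against young control (exact permutation p = 0.286, and 0.20 on the log2 scale without young control library 1) and -0.30 ± 0.54 for aged/doxo against young control (exact permutation p = 0.686), and both also changed sign with that covariate.

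Ehhadh, the peroxisomal bifunctional enzyme and a classical PPARA target of rodent liver, came closest to a separation of groups. It had 109, 136, 112 and 112 TPM in KSL0608-Se treated libraries, 112, 22.2, 97.8 and 53.3 TPM in aged/doxo libraries and 34.6, 93.0, 101 and 110 TPM in young control libraries. Of the 16 pairs that a treated and an aged/doxo library form, the treated one was higher in 15, and the count was also 15 against young control. Some of those pairs were near ties. Aged/doxo library 1, at 111.71 TPM, lay just under treated libraries 3 and 4, at 111.85 and 111.78 TPM. The exact permutation p was 0.0571 in both comparisons, with log2 differences of 0.94 ± 0.47 against aged/doxo and 0.59 ± 0.47 against young control (limma adjusted p = 0.427 and 0.734). Without aged/doxo library 2 and young control library 1 these differences were 0.48 and 0.21. Aged/doxo differed from young control by -0.36 ± 0.47 (limma adjusted p = 1, exact permutation p = 0.629). The ratio of the peroxisomal to the mitochondrial enzyme, Ehhadh to Hadha, was 1.19 ± 0.289 in treated, 1.17 ± 0.126 in aged/doxo and 1.23 ± 0.258 in young control libraries, with exact permutation p-values from 0.743 to 1.

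Pdk4, the fasting-induced kinase, was low in every library. It had 5.35, 6.06, 6.15 and 6.95 TPM in KSL0608-Se treated libraries, 4.48, 2.40, 6.54 and 3.41 TPM in aged/doxo libraries and 0.82, 2.24, 2.29 and 7.25 TPM in young control libraries. Young control library 4 held the highest value of the 12 and the other three of its group the lowest, so the young control coefficient of variation was 89.4%, against 10.7% in treated and 42.1% in aged/doxo libraries. The log2 difference of KSL0608-Se treated against young control was 1.00 ± 0.38 with a 95% interval of 0.18 to 1.81, larger than that of 98.9% of tested genes. Its unadjusted limma p was 0.0205, the adjusted p 0.734 and the exact permutation p 0.143. Without young control library 4 that difference was 1.40, and without young control library 1 it was 0.68. Against aged/doxo the treated difference was 0.51 ± 0.38 (limma adjusted p = 0.434, exact permutation p = 0.114). Pdk4 alone among the 7 tested genes had a positive difference for aged/doxo against young control, 0.49 ± 0.38 (limma adjusted p = 1, exact permutation p = 0.429).

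Fgf21, a fasting hormone secreted by hepatocytes, averaged 0.632 TPM over the 12 libraries and did not reach the mean of 1 TPM required for the limma fit. It had 0.51, 0.84, 1.68 and 0.47 TPM in KSL0608-Se treated libraries, 0.51, 0.40, 0.12 and 0.00 TPM in aged/doxo libraries and 0.44, 0.46, 0.72 and 1.44 TPM in young control libraries. Aged/doxo libraries 3 and 4 held the lowest values, the second of them listed at 0, while library 1 equalled treated library 1. The difference in mean log2(TPM + 1) was 0.55 for KSL0608-Se treated against aged/doxo (exact permutation p = 0.0857), 0.08 for KSL0608-Se treated against young control (exact permutation p = 0.686) and -0.47 for aged/doxo against young control (exact permutation p = 0.114). At these levels a few reads may decide a value, and TPM does not give their number.

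Counted together, 7 of the 8 genes could be tested, and 0 of 7 passed an adjusted p of 0.05 in limma in any of the 3 comparisons. That share has to be read against a background of 0.00919% of tested genes called for KSL0608-Se treated against aged/doxo, 0.0276% for KSL0608-Se treated against young control and 0.00919% for aged/doxo against young control. An unadjusted p under 0.05 was reached by 1 gene for treated against aged/doxo (Ppara, where 3.82% of tested genes did so upward and 0.946% downward), by 1 for treated against young control (Pdk4, 2.74% upward and 0.662% downward) and by 0 for aged/doxo against young control, where 1.19% did so upward and 0.781% downward. The exact permutation test gave 0 of 8 genes at or under 0.05 in any comparison. It was not run over all tested genes, so no background share is given for it. In 0 of 8 were the groups free of overlap, against 2.77% and 3.66% of tested genes higher in treated than in aged/doxo and young control libraries, 0.358% lower in either case, and 0.689% higher and 0.312% lower in aged/doxo than in young control libraries. Fgf21 is counted among the 8 but is not among the tested genes behind these shares.

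All 7 tested genes had positive differences for KSL0608-Se treated against aged/doxo, as did 81.0% of tested genes, and against young control, as did 84.0%. For aged/doxo against young control 1 of 7 was positive, as were 35.2% of tested genes. The median difference of the 7 genes was 0.72 against aged/doxo and 0.57 against young control, beside 0.30 and 0.23 for all tested genes. In both comparisons 6 of 7 lay above the all-gene median, the exception being Cpt2. For aged/doxo against young control the median was -0.26 beside -0.08 for all tested genes, and 2 of 7, Cpt2 and Pdk4, lay above the all-gene median. Without aged/doxo library 2 that median of the 7 was 0.11, and the differences of Acadm, Cpt1a, Cpt2, Ehhadh and Hadha also turned positive.

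**Figure D2:**
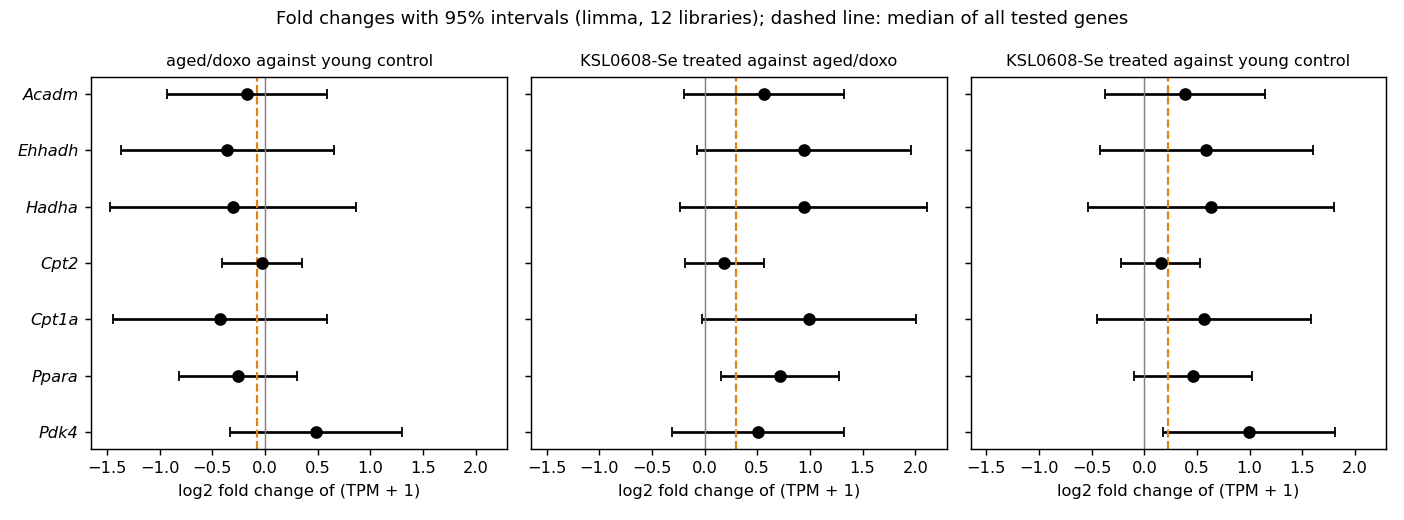
Log2 fold change of (TPM + 1) with its 95% interval from limma for the 7 tested transcripts (rows) in 3 comparisons (panels), with the median of all tested genes as a dashed line. Intervals for Cpt1a, Ehhadh and Hadha reach from about 0 or below to 2 log2 units in the middle panel, and those of Ppara in the middle panel and Pdk4 in the right panel lie above 0 before adjustment over all genes.

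The spread inside groups was shared by most of the 8 transcripts. Averaged over the 7 tested genes, the log2 deviation from each gene's own mean over 12 libraries was 0.17, 0.53, 0.50 and 0.44 in KSL0608-Se treated libraries 1 to 4, 0.38, -1.26, 0.17 and -0.43 in aged/doxo libraries 1 to 4, and -0.91, 0.15, -0.07 and 0.30 in young control libraries 1 to 4. Young control library 1 was the lowest of its group for 7 of 7 genes, aged/doxo library 2 for 6 and treated library 1 for 6. Among Ppara, Cpt1a, Cpt2, Ehhadh, Acadm and Hadha, the 15 pairwise Pearson correlations over the 12 libraries ran from 0.74 to 0.97, and Spearman's rho from 0.58 to 0.94. Leaving out the 2 libraries farthest from the median of the first gene of a pair gave 0.58 to 0.97, and deviations from group means gave 0.67 to 0.97. Cpt1a and Hadha formed the closest pair. Pdk4 followed the 6 less closely, at 0.53 to 0.73, which was 0.20 to 0.75 with the 2 farthest libraries left out and 0.43 to 0.77 within groups. Fgf21 followed the other 7 at 0.32 to 0.55, which was -0.02 to 0.70 with the 2 farthest left out and 0.17 to 0.43 within groups. Spearman's rho ran from 0.34 to 0.77 for Pdk4 with the 6 and from 0.38 to 0.78 for Fgf21 with the 7. All values come from the same 12 libraries and are given as a description, without a p.

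Ppara's closest companions among all tested genes were looked up on the same scale over the 12 libraries. They were Stradb with a Pearson correlation of 0.98, Fbxo34 with 0.97, Rdh10 with 0.97, Otud3 with 0.97 and Slc6a9 with 0.96. The median over all 10883 tested genes was 0.72, so a high correlation with Ppara was common in these libraries. Against that background Cpt1a, at 0.93, exceeded 99.0% of tested genes, Hadha, at 0.91, exceeded 94.7%, and Ehhadh, at 0.89, exceeded 88.4%. Acadm stood at 0.85 and exceeded 76.1%, Cpt2 at 0.84 and exceeded 71.2%, and Pdk4 at 0.55 and exceeded 36.5%. Without aged/doxo library 2 and young control library 1 the correlations were 0.84 for Cpt1a, 0.79 for Hadha and 0.72 for Ehhadh. They were 0.58 for Acadm, 0.75 for Cpt2 and 0.20 for Pdk4 in that smaller set. Ranks among all tested genes are given for the 12 libraries only.

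Libraries also differed in how TPM depended on gene length. The slope of log2(TPM + 1) on log10 of the gene length in the deposited table was -1.28, -0.90, -0.89 and -0.76 in KSL0608-Se treated libraries 1 to 4, -0.97, -1.57, -1.15 and -1.49 in aged/doxo libraries 1 to 4, and -1.57, -0.84, -1.18 and -1.16 in young control libraries 1 to 4. Libraries with the steepest slopes, aged/doxo 2 and young control 1, were those in which the mean deviation of the 7 genes was lowest. Single genes departed from this. Cpt2 was lowest in aged/doxo library 4, at 52.7 TPM, and Pdk4 in aged/doxo library 2, at 2.40 TPM, lay above young control libraries 1, 2 and 3. Aged/doxo library 2 also gave 27.6% of its TPM to mitochondrially encoded genes, against 8.10% to 12.4% in the other 11. The mean deviation of the 7 genes and the slope had a Pearson correlation of 0.87 and Spearman's rho of 0.79 over the 12 libraries. It was 0.80 without the 2 libraries of most extreme slope and 0.83 for deviations from group means.

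Gene by gene, the correlation with the slope was 0.92 for Hadha (4017 bases long) and 0.90 for Cpt1a (4317 bases), the longest of the 8. It was 0.87 for Ppara (2519 bases), 0.84 for Cpt2 (2372 bases), 0.82 for Ehhadh (2981 bases), 0.76 for Acadm (2047 bases) and 0.56 for Pdk4 (3484 bases). The median over all tested genes was 0.69, and 82.0% were above 0. Hadha exceeded 90.0% of tested genes in this correlation and Cpt1a 84.4%, while Pdk4 exceeded 40.2%.

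With the slope as a covariate in the limma fit, the median difference of the 7 genes was 0.12 for KSL0608-Se treated against aged/doxo, 0.08 against young control and -0.02 for aged/doxo against young control. The all-gene medians in that fit were 0.02, 0.04 and 0.02. Ppara's difference of treated against aged/doxo was then 0.34, Ehhadh's 0.24, Cpt1a's 0.19 and Pdk4's 0.12. Without aged/doxo library 2 and young control library 1 the medians of the 7 genes were 0.42, 0.21 and -0.20 in the same order of comparisons, beside all-gene medians of 0.13, 0.09 and -0.04. In that smaller set the differences of Ppara and Ehhadh against aged/doxo had exact permutation p-values of 0.0857 and 0.0571, with a log2 difference of 0.52 for Ppara. For Cpt1a, Cpt2, Acadm, Hadha, Pdk4 and Fgf21 the exact permutation p ran from 0.171 (Fgf21) to 0.429 (Acadm).

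**Figure D3:**
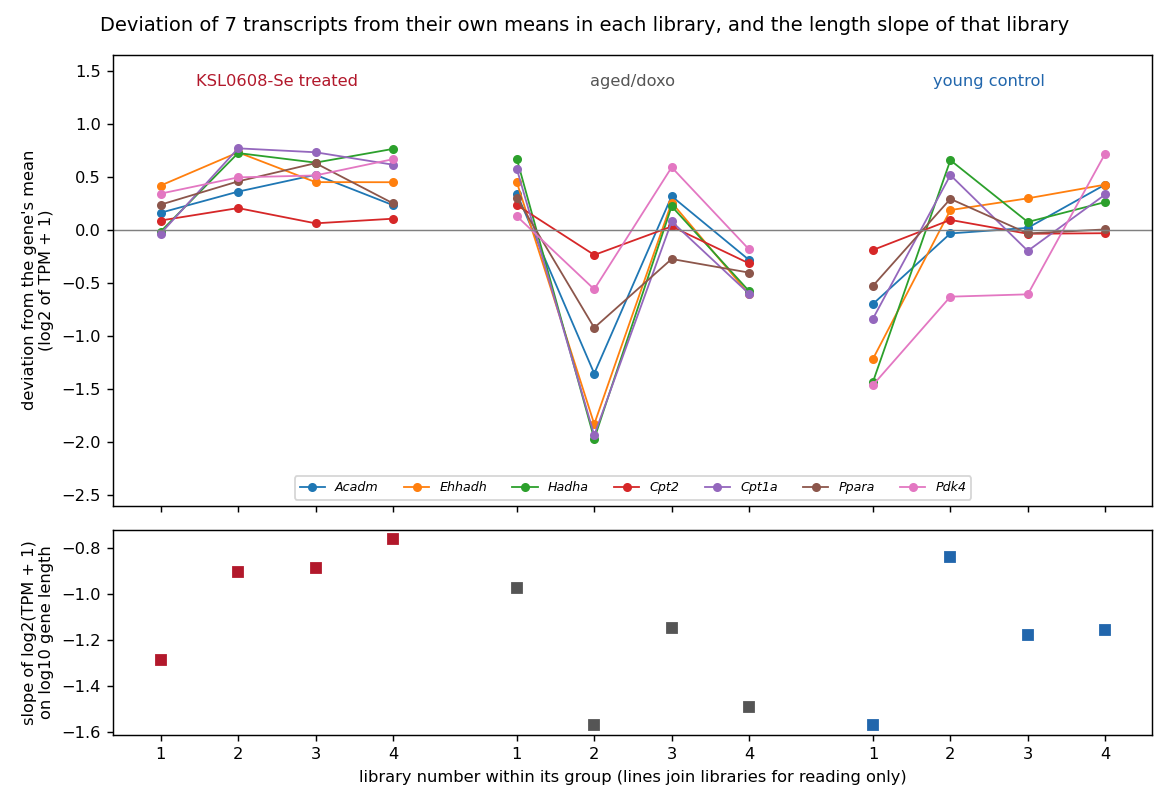
Upper panel, deviation of each of 7 transcripts from its own mean over 12 libraries in log2(TPM + 1), by library within KSL0608-Se treated, aged/doxo and young control groups. Lower panel, the slope of log2(TPM + 1) on log10 gene length in the same libraries. Aged/doxo library 2 and young control library 1 are low in both panels, with mean deviations of -1.26 and -0.91.

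A further 10 lists of the same pathway held 118 genes, of which 107 could be tested, and 0 passed the adjusted threshold in limma in any comparison. For KSL0608-Se treated against aged/doxo, 103 had a positive and 4 a negative difference, with a median of 0.56, where 81.0% of all tested genes were positive and their median was 0.30. An unadjusted p under 0.05 was reached by 8 of 107 (7.48%), all upward, beside 3.82% of all tested genes upward. Groups did not overlap for 4 of 107 (3.74%, beside 2.77% of all tested genes), namely Nr0b2, Bdh1, Pcca and Prkab1. Against young control, 101 of 107 differences were positive with a median of 0.36, beside 84.0% and 0.23 for all tested genes. There 1 gene of the lists (Lpin1, 0.935%) had an unadjusted p under 0.05, beside 2.74% of all tested genes upward. Groups did not overlap for 5 (4.67%, beside 3.66% of all tested genes), namely Bdh1, Acadl, Etfa, Etfb and Dlat, all higher in treated libraries. For aged/doxo against young control, 18 of 107 were positive and 89 negative with a median of -0.20, beside 35.2% positive and a median of -0.08 for all tested genes. An unadjusted p under 0.05 was reached by 0 of 107, beside 0.781% of all tested genes downward. Genes named for a lack of overlap were chosen after their values were seen. In the next paragraphs, the limma adjusted p for treated against aged/doxo was 0.427 for each gene given with these groups, except 0.428 for Cyp4a10.

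Receptors and partners of PPARA (13 of 15 genes tested) had a median difference of 0.25 for KSL0608-Se treated against aged/doxo, under the all-gene median. The gene of smallest p was Nr0b2, the corepressor SHP, at 81.3 ± 8.04 TPM in treated and 51.5 ± 16.5 in aged/doxo libraries, a log2 difference of 0.70 ± 0.27. Lpin1, a coactivator of PPARA as well as a phosphatidate phosphatase, averaged 4.995 ± 1.76 TPM in treated and 2.62 ± 1.14 in aged/doxo libraries, with 2.64 ± 1.15 in young control. Rxra, the obligate partner of PPARA, averaged 58.6 ± 13.8 TPM in treated, 36.1 ± 19.4 in aged/doxo and 47.1 ± 19.4 in young control libraries. The coactivator genes Ppargc1a and Ppargc1b fell under the filter on low values.

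Fatty acid activation and the carnitine shuttle (13 of 14 tested) had a median of 0.53, and control of CPT1 by malonyl-CoA (8 of 8) one of 0.51. Acsl1, the main long-chain acyl-CoA synthetase of liver, averaged 192 ± 29.4 TPM in treated and 127 ± 69.7 in aged/doxo libraries. Acaca, which makes malonyl-CoA, an inhibitor of CPT1, averaged 10.9 ± 3.17 TPM in treated and 5.51 ± 2.75 in aged/doxo libraries, a log2 difference of 0.92 ± 0.39. Acacb, of the same list, averaged 12.9 ± 2.6 TPM in treated and 7.2 ± 4.1 in aged/doxo libraries, a log2 difference of 0.88 ± 0.47. Acaca, Acacb and Cpt1a, the gene for the inhibitor's target, all had positive differences, as did 81.0% of all tested genes. Prkab1, a subunit of the kinase AMPK that inactivates acetyl-CoA carboxylase, averaged 13.3 ± 1.23 TPM in treated and 9.02 ± 2.43 in aged/doxo libraries without overlap.

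Mitochondrial oxidation genes beyond the 8 (18 of 18 tested) had a median of 0.64 and peroxisomal ones (15 of 17) of 0.53. Acad11, an acyl-CoA dehydrogenase, had the largest difference of the mitochondrial list, 1.22 ± 0.66, at 74.1 ± 17.3 TPM in treated and 43.4 ± 33.0 in aged/doxo libraries. Abcd3, a peroxisomal acyl-CoA importer, averaged 165 ± 17.5 TPM in treated and 104 ± 62.0 in aged/doxo libraries. Like Ehhadh, these transcripts had their widest spread in the aged/doxo group.

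Omega-oxidation genes (7 of 7 tested), which start oxidation at the far end of the chain, had a median of 0.57. Cyp4a10, a sensitive PPARA target of mouse liver, averaged 102 ± 42.8 TPM in treated, 70.2 ± 68.6 in aged/doxo and 56.3 ± 57.0 in young control libraries. The Cyp4a genes are close copies of each other, so reads may have been split among them. Ketone body genes (6 of 6) had a median of 0.65. Bdh1, which makes beta-hydroxybutyrate, averaged 116 ± 11.0 TPM in treated, 79.2 ± 38.0 in aged/doxo and 81.9 ± 23.6 in young control libraries, and its treated values overlapped neither group. Against aged/doxo the margin was narrow, with a lowest treated value of 109.53 TPM and a highest aged/doxo value of 109.47 TPM.

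Other known PPARA targets (14 of 17 tested) had a median of 0.58. Angptl4, an inhibitor of lipoprotein lipase, had an unadjusted limma p of 0.0200 and averaged 13.3 ± 6.50 TPM in treated, 6.09 ± 2.27 in aged/doxo and 8.16 ± 3.24 in young control libraries. Plin2, a lipid droplet coat protein, averaged 233 ± 8.98 TPM in treated and 147 ± 84.2 in aged/doxo libraries. Cidec, a lipid droplet fusion protein, was the 1 gene of the lists whose aged/doxo values lay wholly below young control, beside 0.312% of all tested genes, at 1.57 ± 0.272 TPM in aged/doxo libraries against 2.26 ± 0.231 in young control libraries (limma adjusted p = 1).

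Around Pdk4, the pyruvate dehydrogenase genes and their kinases (8 of 10 tested) had a median of 0.66. Pdk2, another kinase of the family, averaged 44.9 ± 5.31 TPM in treated, 32.4 ± 9.49 in aged/doxo and 39.3 ± 11.6 in young control libraries. Pdp2, a phosphatase that undoes the action of these kinases, averaged 4.61 ± 0.495 TPM in treated and 2.95 ± 1.27 in aged/doxo libraries. FGF21 receptors (5 of 6 tested) had a median of 0.32, and Klb, the coreceptor of FGF21, averaged 5.80 ± 2.10 TPM in treated and 3.07 ± 2.08 in aged/doxo libraries.

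**Figure D4:**
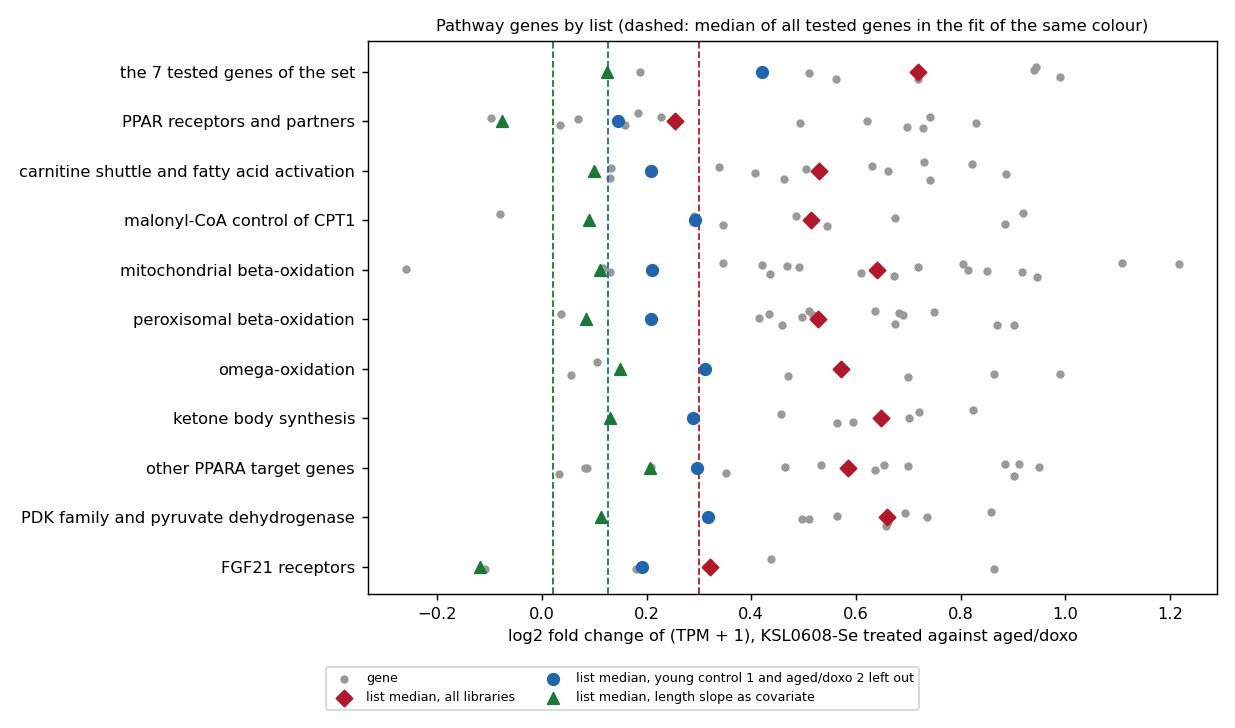
Log2 fold change of (TPM + 1) for KSL0608-Se treated against aged/doxo liver, by gene (grey) and by list median in all libraries (red diamonds), with 2 libraries, young control 1 and aged/doxo 2, left out (blue circles) and with the length slope as covariate (green triangles). Dashed lines are the all-gene medians of the same fits, 0.30, 0.13 and 0.02. Most list medians lie above the line of their own colour, and all lie closer to 0 in the fits drawn in blue and green than in red.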

How the data were processed

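RNA of mouse liver was extracted with TRIzol and freed of DNA, per the labels' protocols. Reads were processed with fastp, HISAT and RSEM, per the submitters' processing notes. The authors' build and annotation, not given in the sources used here, may differ from those of the positions printed. The deposited values are TPM, which the authors scaled to a fixed total per library, so depth is unknown and abundant genes can shift the rest.

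Values were analysed as log2(TPM + 1), which understates changes of low genes, in the 10883 genes with a mean of at least 1 TPM. limma 3.58.1 in R 4.3.3 fitted group to all 12 libraries with an intensity trend, and p-values were adjusted by Benjamini-Hochberg over all tested genes, with 0.05 as the threshold. Exact permutation tests were two-sided over 70 divisions of 8 libraries into 4 and 4, and over fewer where libraries were left out. The fit was tested on simulated data. The 8 genes, the pathway and marker lists and the alternatives were chosen with earlier results of these data known. Named genes were the 8, up to 3 genes of smallest p per list and comparison, other list genes with their level, and the 5 genes closest to Ppara. Alternatives covered the pseudocount, the filter, scaling, a block of replicate numbers, the groups alone, a length slope and left-out libraries. Positions follow GENCODE M21 on GRCm38, matched by gene ID. Promoters are RefSeq's, and all 8 symbols matched. Plots used matplotlib 3.10.9 under Python 3.11.15. Values of some list genes are not reported here.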

Additional observations from a re-analysis of the deposited data

Results flagged for a closer look

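Ehhadh in KSL0608-Se treated library 2 was at 136 TPM (136.05 before rounding), while the other 3 libraries of its group lay between 109 and 112 TPM. Its gap to the nearest of them was 0.907 of the range of the group, which is beyond the critical value of Dixon's test for 4 values. The test was run on 24 groups of 4 libraries, 8 genes in 3 groups, and chance alone flags about 1 group in 20. The values of Ehhadh in the group still overlapped those of aged/doxo and young control libraries through treated library 1, at 109 TPM.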

How the results depend on the processing

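Under 22 alternatives, 0 of the 7 tested genes and 0 of the pathway genes were called in any comparison. Pdk4, at a mean of 4.495 TPM, fell under the stricter filter on level and was tested in 21 of the 22. Pathway genes of low level fell under that filter too. Of 507 log2 differences of the 8 genes under alternatives, 485 kept their direction, 22 reversed and 0 passed the threshold. Genes called over the whole table numbered 1 for KSL0608-Se treated against aged/doxo. They were 2 with the compared groups alone, 0 with the length slope, median-of-ratios or quantile scaling, no filter, a pseudocount of 0.01, or aged/doxo library 2 and young control library 1 left out, and 0 to 1 with each library left out in turn (0 without treated library 2, aged/doxo library 2 or aged/doxo library 4). For KSL0608-Se treated against young control the count was 3. It was 1 with the compared groups alone or no filter, and 1 to 5 with libraries left out (1 without treated library 2, 5 without aged/doxo library 2). For aged/doxo against young control the count was 1. It was 0 with the compared groups alone or no filter, 2 with the length slope, quantile scaling or a pseudocount of 0.1 or 0.01, 3 with median-of-ratios scaling and 0 to 2 with libraries left out. The cause of these shifts was not tested.

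The median of the 7 genes for treated against aged/doxo was 0.12 with the length slope, and 0.42 to 0.93 with libraries left out. For aged/doxo against young control it ran from -0.47 to 0.11 with libraries left out, reversing without aged/doxo library 2. With libraries left out in turn, the differences of aged/doxo against young control ran from -0.38 to 0.20 for Acadm, from -0.77 to 0.063 for Cpt1a, from -0.13 to 0.051 for Cpt2, from -0.74 to 0.11 for Ehhadh and from -0.74 to 0.21 for Hadha. In each case the value without aged/doxo library 2 was above 0. Cpt2 in that comparison was 0.023 with the length slope, 0.062 with median-of-ratios and 0.050 with quantile scaling. Cpt2 with median-of-ratios and quantile scaling was -0.19 and -0.098 for treated against aged/doxo, and -0.12 and -0.049 for treated against young control. Hadha with the length slope was -0.042, -0.024 and 0.018 for treated against aged/doxo, treated against young control, and aged/doxo against young control. Fgf21 for treated against young control was -0.0357 with median-of-ratios scaling, -0.0087 with young control library 1 and aged/doxo library 2 left out, and -0.11 to 0.24 with libraries left out in turn. The all-gene median with median-of-ratios scaling was -0.0032, -4.9e-05 and 0 in the same 3 comparisons. For aged/doxo against young control it was also 0.019 with the length slope, 0 with no filter and -0.21 to 0.10 with libraries left out in turn.

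Groups share replicate numbers in the titles, but same-numbered libraries did not deviate together, with correlations from -0.58 to 0.39, so the numbers were not read as pairs. With the number as a replicate block, 0 of the 7 tested genes were called, and the whole table gave 0 calls for treated against aged/doxo, 1 for treated against young control and 0 for aged/doxo against young control.

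With 4 libraries a group and TPM that keep no depth, differences of the size seen for Cpt1a or Hadha, with intervals of about 2 log2 units, were not resolved, and Fgf21 lay too low to be fitted.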
